A study of Rattus norvegicus with 4 samples.

Results

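CLDN2 (claudin-2), CLDN1 (claudin-1) and OCLN (occludin) are the tight junction genes of the rat choroid plexus that could be followed by name here. They are the genes of the study's list of transcribed choroid plexus genes whose names begin with CLDN, TJP, OCLN, MARVELD or F11R, 3 of 32883 Ensembl gene IDs, and 0 names began with TJP, MARVELD or F11R. The list as read here held the 1998 highest genes of the male choroid plexus, down to 57.8 TPM (an abundance per transcript length with an equal sum for every library), so the remaining claudins and zonula occludens genes were not analysed here. A gene could be a member only with a high level in the male tissue. That level, and the members' differences from it in other libraries, are therefore given as a description.

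RNA came from 9-week-old Sprague Dawley rats, with 1 library per condition and 4 in all. Whole choroid plexus of the lateral and 4th ventricles was pooled from 5 male rats in one library and from 5 female rats in another. Epithelial cells were captured from the collagenase-digested choroid plexus of 10 male rats by FACS with an antibody against NKCC1, and proximal tubules were collected by hand under a microscope from the kidneys of 5 male rats after digestion with collagenase and pronase. By the wording of the study's methods these were the male rats that gave the choroid plexus, so the tubule and the male choroid plexus libraries come from the same animals. No group had a replicate, so no test between conditions was possible, and the intervals below are 95% intervals that cover counting error only, not the spread between animals or the copying of molecules by PCR. Total expected counts ran from 23873318 to 28324976 per library.

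Tight junctions seal the space between neighbouring epithelial cells near their apical side, and in the choroid plexus they form the barrier between blood and cerebrospinal fluid. Claudins are the membrane proteins that build the strands of the junction and set which ions pass between the cells. Claudin-2 forms a pore for cations and water and is known from leaky, fluid-transporting epithelia such as the choroid plexus and the proximal tubule, whereas claudin-1 is a sealing claudin. Occludin is another membrane protein of the strands, outside the claudin family.

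Promoter sequences from RefSeq (rat assembly GRCr8, a later build than the Rnor_6.0 of the gene counts) were matched by symbol for Cldn1 and Ocln, 2 of the 3 genes. They are shown because these were the members with an entry, and Cldn2 had none. Each run gives the 250 bases before the annotated start, 5′ to 3′ on the gene's strand, and the capitals mark the E box CAGGTG and the GC box GGGCGG, searched on both strands.
Cldn1, chr11:87926126-87926375, plus strand: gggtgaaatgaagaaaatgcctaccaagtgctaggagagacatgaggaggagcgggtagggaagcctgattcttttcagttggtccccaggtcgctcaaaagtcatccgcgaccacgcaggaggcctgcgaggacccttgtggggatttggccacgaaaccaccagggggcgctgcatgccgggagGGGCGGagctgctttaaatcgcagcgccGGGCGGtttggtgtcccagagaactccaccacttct
Ocln, chr2:33441199-33441448, minus strand: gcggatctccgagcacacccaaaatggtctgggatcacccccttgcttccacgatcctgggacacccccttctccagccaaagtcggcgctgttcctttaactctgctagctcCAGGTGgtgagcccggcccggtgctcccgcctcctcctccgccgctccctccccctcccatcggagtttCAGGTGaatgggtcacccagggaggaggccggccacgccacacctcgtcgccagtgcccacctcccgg
The run of Ocln held the E box 137 and 68 bases before the start and no GC box, and that of Cldn1 held the GC box 64 and 36 bases before the start and no E box. Over all 33469 promoters of the same length, 15.9% held the E box and 30.5% the GC box. Neither run held TATAAA on the forward strand, or CCAAT on either strand. Such matches describe the letters of these windows only.

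CLDN2 was the most abundant of the 3 in every library. In the male choroid plexus CLDN2 (ENSRNOG00000054495) had 799.6 TPM (interval 793 to 806) from 54751 expected counts, in the female choroid plexus 744 TPM (737 to 750.2) from 49964 expected counts, in the sorted cells 659 TPM (653 to 665) from 47614 expected counts and in the proximal tubule 15.8 TPM (15.0 to 16.6) from 1607 expected counts. By TPM it placed 109 among all genes of the male choroid plexus, 117 in the female, 112 among those of the sorted cells and 1216 in the proximal tubule. The 3 choroid plexus libraries thus lay close together, and the proximal tubule far below them. These TPM include the mitochondrially encoded genes, which took 72.1% of the TPM in the proximal tubule and 8.37% in the male choroid plexus. The difference without those genes is smaller and is given further below.

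CLDN1 (ENSRNOG00000001926) had 86.9 TPM (84.8 to 89.0) from 6448 expected counts in the male choroid plexus, 61.4 TPM (59.7 to 63.3) from 4478 in the female and 66.3 TPM (64.5 to 68.1) from 5204 in the FACS library. In the proximal tubule CLDN1 was listed at 0. An expected count of 0 is read here only as listed, since 670 of the 1998 listed genes, or 33.5%, were at 0 in this library, among them RAC1, a small GTPase of the actin cytoskeleton, and CTNNB1 (β-catenin).

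OCLN (ENSRNOG00000018297) had 76.5 TPM (74.7 to 78.4) from 6538 expected counts in the male choroid plexus, 69.55 TPM (67.8 to 71.4) from 5841 in the female, 42.8 TPM (41.5 to 44.2) from 3870 in the FACS library and 1.07 TPM (0.898 to 1.26) from 137 in the proximal tubule. Of the choroid plexus libraries, OCLN was thus lowest in the FACS cells, while CLDN1 was lowest in the female tissue. The expected counts of the 3 genes were whole numbers in each library.

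**Figure D1:**
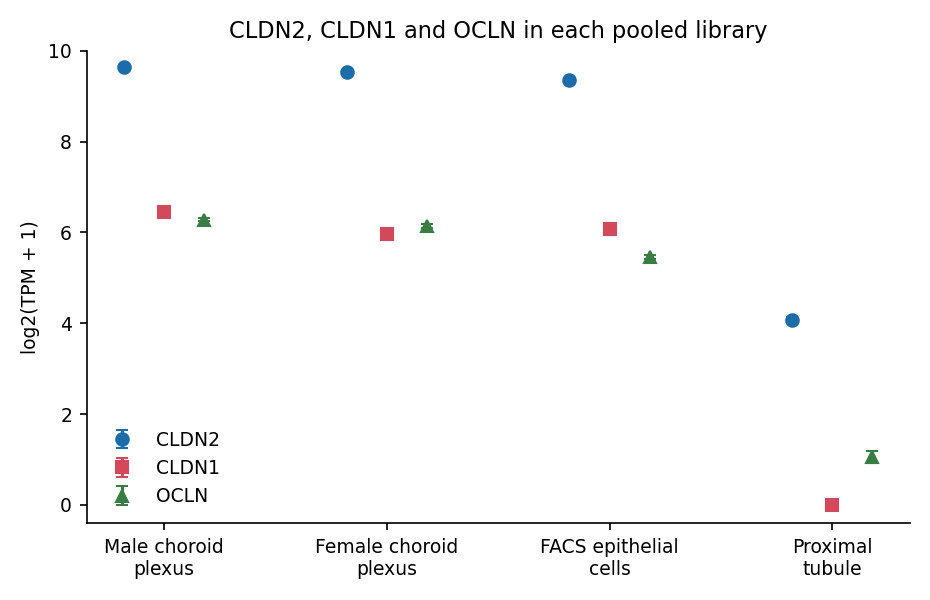
Levels of CLDN2, CLDN1 and OCLN in each of the 4 pooled libraries, as log2(TPM + 1), with bars for the 95% interval of counting error (mostly smaller than the symbols, and not drawn for CLDN1 in the proximal tubule, which was listed at 0). CLDN2 lies above CLDN1 and OCLN in every library, and all 3 genes lie lowest in the proximal tubule. The TPM include the mitochondrially encoded genes, which took 72.1% of the TPM in the proximal tubule.

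The ratio between members within a library does not depend on how the library was scaled. In the male choroid plexus CLDN2 had 9.20 times the TPM of CLDN1 (8.97 to 9.45), in the female 12.1 times (11.7 to 12.5) and in the FACS library 9.93 times (9.65 to 10.2). Relative to CLDN1, the level of CLDN2 was thus highest in the female tissue, and no interval overlapped another. CLDN2 had 10.5 times the TPM of OCLN in the male choroid plexus (10.2 to 10.7), 10.7 times in the female (10.41 to 10.99), 15.4 times in the FACS library (14.9 to 15.9) and 14.8 times in the proximal tubule (12.4 to 17.7). The intervals of both whole tissues overlapped, as did those of the FACS library and the proximal tubule, while these pairs were apart from each other.

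Of the summed TPM of the 3 genes, CLDN2 made up 83.0% and 85.0% in the male and female tissue, 85.8% in the sorted cells and 93.7% in the proximal tubule. The order of CLDN1 and OCLN was not fixed. CLDN1 had 1.14 times the TPM of OCLN in the male choroid plexus (1.10 to 1.18) and 1.55 times in the FACS library (1.49 to 1.62), and 0.883 times in the female choroid plexus (0.849 to 0.919). Without division by length, CLDN1 had 0.986 times the expected counts of OCLN in the male choroid plexus, where the intervals of the counts overlapped (6292 to 6607 for CLDN1 and 6380 to 6698 for OCLN), so the order in the male tissue held per length alone.

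**Figure D2:**
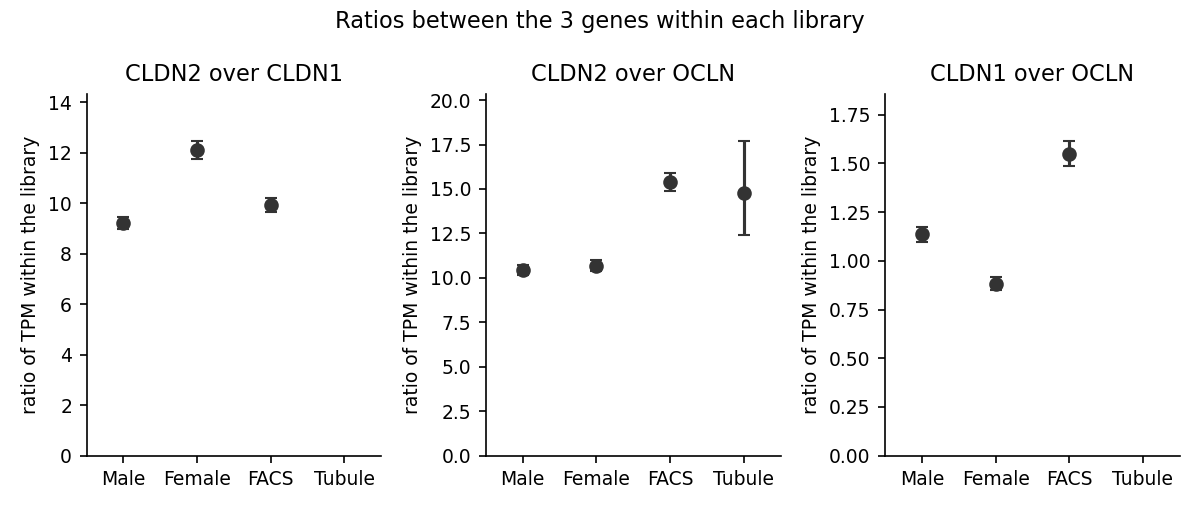
Ratio of TPM between pairs of the 3 genes within each library (Male, Female, FACS, Tubule), as points with 95% intervals of counting error and axes from 0. CLDN2 over OCLN is 10.5 and 10.7 in the whole tissues against 15.4 in sorted cells and 14.8 in proximal tubules, and ratios to CLDN1 are not drawn for the tubule, where CLDN1 was listed at 0.

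Each comparison that follows is with the male choroid plexus, so all 3 share that library. The members were found by their high level there, which favours a lower value elsewhere. The genes of the list, found in the same way, are therefore given beside all genes. The FACS library was compared with it to set captured epithelial cells beside the tissue. OCLN had 0.559 times its male TPM in the FACS library (interval 0.537 to 0.582). CLDN2 had 0.824 times (0.814 to 0.834) and CLDN1 0.763 times (0.736 to 0.792), both in the opposite direction once the 10 highest genes of each library were left out (log2 ratios of 0.13 and 0.022). On the scale of log2(TPM + 1), which understates differences of low genes, the log2 ratios of FACS to male were -0.28 for CLDN2, -0.38 for CLDN1 and -0.82 for OCLN. Over the 14024 genes at or above 0.5 TPM in either library the median was -0.58, and 66.2% of these genes had a lower ratio than CLDN2, 60.8% a lower one than CLDN1 and 35.4% a lower one than OCLN. Relative to that median, CLDN2 was 0.30 and CLDN1 0.20 above and OCLN differed by -0.24.

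A difference of at least 2-fold between FACS cells and male tissue was found for 0 of the 3 members, against 30.1% of all genes (25.5% lower and 4.61% higher) and 30.4% of the genes of the list. The members' median log2 ratio was -0.38. As a share of all expected counts, CLDN2 had 0.193% in the male tissue and 0.199% in the FACS library (95% Wilson intervals 0.192 to 0.195% and 0.198 to 0.201%), and CLDN1 had 0.0228% and 0.0218% (0.0222 to 0.0233% and 0.0212 to 0.0224%, which overlap). Against the female choroid plexus in place of the male, CLDN1 had a log2 ratio of 0.11 in the FACS library, whereas OCLN had -0.69.

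Epithelial markers gave a further scale. Relative to each of 10 of them, the level of CLDN2 in the FACS library was above that in the male tissue for 7 markers, that of CLDN1 for 7 and that of OCLN for 2. The 10 ratios of a member share that member's values, so they are not separate observations and only place it among the markers. Per KCNJ13, a K+ channel of the apical membrane, CLDN2 had 58.3% of its TPM in the male choroid plexus and 96.2% in the FACS library. Per AQP1, a water channel, the values were 111% and 95.9%. OCLN had 5.58% of the TPM of KCNJ13 in the male tissue and 6.24% in the FACS library, and per AQP1 it had 10.6% and 6.23%.

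SLC12A2, the gene of the sorted antigen NKCC1, had 150.3 TPM in sorted cells against 268 TPM in whole male tissue. Markers of other cells differed between these libraries too. All 5 named immune markers, among them CD74 (antigen presentation) and CSF1R (the receptor of macrophage growth factor), were higher in the FACS library. Their sum was 2661 TPM against 373 TPM for whole male tissue, of which CD74 alone had 2556 and 345 TPM. Of the fibroblast and mural markers 3 of 4 were higher (sum 484 against 287 TPM). Of the endothelial markers 3 of 5 were higher, while their sum was lower (113 against 216 TPM) through EDNRB, with 36.85 against 150.35 TPM. Of the epithelial markers 2 of 10 were higher, among them TTR, which took 39.0% of the TPM in the FACS library and 23.9% in the male tissue. Most genes were lower in the FACS library, with an upper quartile of all log2 ratios of -0.08 and a median of -0.58. Above that median lay 6 of 10 epithelial, 5 of 5 immune, 3 of 4 fibroblast and mural and 4 of 5 endothelial markers. None of these markers was at 0 in either library, and their part in the members' values was not tested. In pooled tissue, fewer cells of a type and less RNA per cell cannot be told apart.

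Between the sexes, CLDN1 stood farther from equality than the other two. In the female choroid plexus CLDN1 had 0.707 times its male TPM (interval 0.681 to 0.735). CLDN2 had 0.930 times (0.919 to 0.941) and OCLN 0.909 times (0.877 to 0.942), and both lay on the other side of equality when centred on the median of all genes (0.051 and 0.020 on the log2 scale). The log2 ratios of female to male were -0.49 for CLDN1, -0.10 for CLDN2 and -0.14 for OCLN, with a median of -0.16 over 13869 genes and of -0.11 over the genes of the list. Of all genes 6.63% had a lower ratio than CLDN1, and of the genes of the list 2.75%.

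CLDN2 and OCLN lay near the middle of all genes, with 59.9% and 53.8% of the ratios below theirs. A difference of at least 2-fold was found for 0 of the 3 members, against 1.40% of all genes and 0.501% of the genes of the list. The level of CLDN1 relative to the epithelial markers was below the male value for every one of the 10, with a median of -0.34 on the log2 scale and a range of -0.76 to -0.16. All 10 ratios share the same CLDN1 values, so they are not separate observations. Relative to the same markers, and with the same limit, CLDN2 was above the male value for 7 and OCLN for 6. As a share of counts CLDN1 was lower in the female tissue as well, with 0.0176% (0.0171 to 0.0182%) against 0.0228%.

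All 5 named immune markers and all 4 fibroblast and mural markers were lower in the female library (sums of 228 against 373 TPM and 229 against 287 TPM), with a median log2 ratio of -0.51 and of -0.32, and 4 of 5 endothelial markers were lower. Most genes were lower as well, with an upper quartile of all log2 ratios of -0.014 and a median of -0.16. Above that median lay 1 of 5 immune, 0 of 4 fibroblast and mural and 1 of 5 endothelial markers. The part of these cells in the value of CLDN1 was not tested. Across all genes the log2 ratio of female to male declined with effective length (Spearman rho -0.31 over 13869 genes, which are not independent replicates), and the effective length in the male library was 3029 bases for CLDN1, 2794 for CLDN2 and 3487 for OCLN. With 1 pool of each sex, sex and the difference between pools cannot be told apart.

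**Figure D3:**
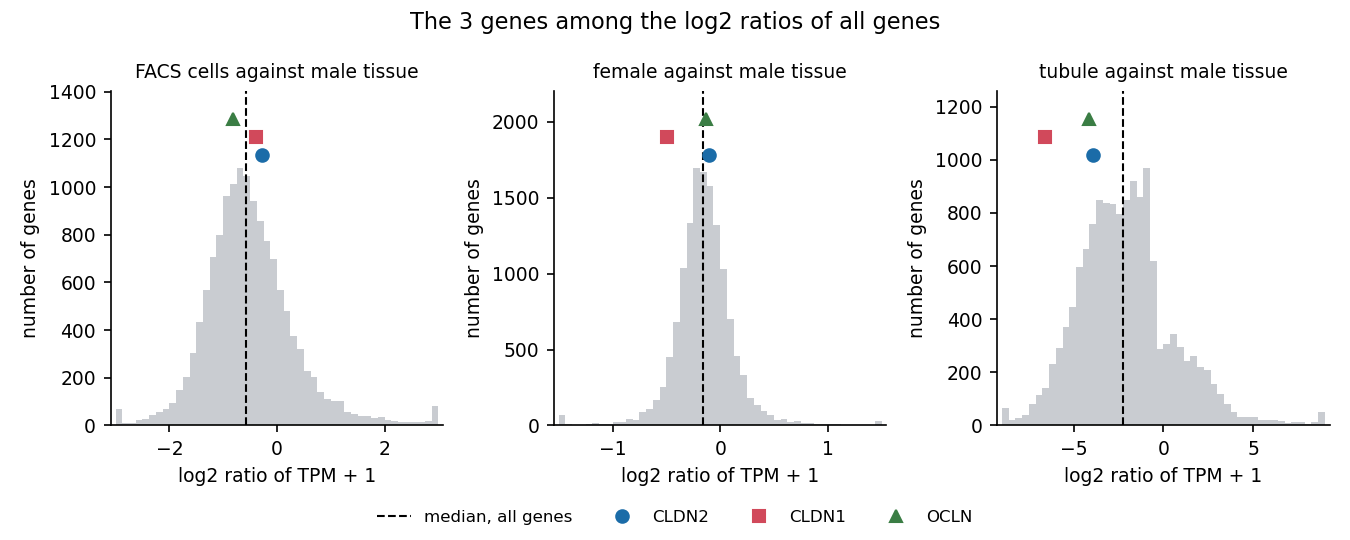
Histograms of the log2 ratio of TPM + 1 over all genes in 3 comparisons with the male choroid plexus, which share that library (x axis, log2 ratio, with genes beyond the axis in its outermost bars; y axis, number of genes). The dashed line is the median of all genes, at -0.58, -0.16 and -2.27, and symbols give CLDN2, CLDN1 and OCLN, and CLDN1 lies left of the median in the female and tubule comparisons and right of it in the FACS comparison.

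The proximal tubule was compared with the choroid plexus as another epithelium of high fluid transport. Of its counts, 70.7% were on the 13 mitochondrially encoded genes, so these were removed from both libraries and the TPM rescaled, which left 7352952 counts in the proximal tubule and 26813157 in the male choroid plexus. On this scale CLDN2 had 56.7 TPM (53.9 to 59.5) in the proximal tubule and 873 TPM (865 to 880.0) in the male choroid plexus, 15.4-fold lower in the tubule (14.7 to 16.2). OCLN had 3.84 TPM (3.22 to 4.54) against 83.5 TPM (81.5 to 85.5), 21.8-fold lower (18.4 to 26.0). CLDN1, listed at 0 in the tubule, had 94.8 TPM in the male choroid plexus, and no fold is given for it.

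The log2 ratios of tubule to male choroid plexus were -3.92 for CLDN2 and -4.13 for OCLN, against a median of -2.27 over 14227 genes and of -4.17 over the 1985 genes of the list that remained. All 3 members were at least 2-fold lower in the tubule, CLDN1 by its listed 0, while 71.0% of all genes and 75.5% of the genes of the list were so. Of all genes, 24.5% had a lower ratio than CLDN2, and of the genes of the list 52.8%. The list genes listed at 0 in the tubule, 33.5% of the list, all have a lower ratio than CLDN2. The place of CLDN2 in the list and the list's median thus rest in part on those zeros, which are read only as listed. With mitochondrially encoded genes kept, the log2 ratio was -5.57 for CLDN2 and -5.23 for OCLN. On that scale OCLN had 1.07 TPM in the tubule, so the added 1 TPM draws its ratio toward equality, and the order of these values is not read. With the mitochondrially encoded genes removed, the log2 ratios relative to the median of all genes were -1.65 for CLDN2 and -1.86 for OCLN.

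CLDN2 placed 1204 among the genes of the tubule without the mitochondrial ones. The tubule library held markers of its segment, with 385 TPM of SLC13A1, a sulphate transporter, and 67.7 TPM of SLC34A1, a phosphate transporter, both listed at 0 in the male choroid plexus. Of 8 named proximal tubule markers 6 were at least 2-fold higher in the tubule. SLC13A3 was near equal, with 1.69 against 1.65 TPM, and SLC22A8, an organic anion transporter, was lower, with 14.9 against 132 TPM. Markers of other nephron segments were present as well, with 89.3 TPM of KCNJ1 and 17.2 TPM of SLC12A1 and a sum of 121 TPM over 6 named genes, of which SCNN1A was at 0. All 10 choroid plexus markers were at least 2-fold lower in the tubule, where TTR had 0.251 TPM from 1 expected count and KCNJ13, CLIC6, HTR2C, SLC4A5 and SLC13A4 were listed at 0. The remaining 4 were read there, with 98.8 TPM of ATP1B1, a subunit of the Na+/K+-ATPase, 47.7 TPM of AQP1, 37.2 TPM of FOLR1, a folate receptor, and 5.45 TPM of SLC12A2. The part of other segments in the value of CLDN2 was not tested.

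Beside the claudins and occludin, 26 genes of junction lists had a name, of 81 genes on these lists. The lowest of the 26 in the male choroid plexus was CTNNAL1 with 61.2 TPM, above the lowest listed level of 57.8 TPM. As for the members, a high level in the male tissue was thus part of how these genes were found. Their places and their differences from the male tissue are therefore given as a description. Of the tight junction genes proper, 5 of 37 were named. They were JAM3, an adhesion molecule, CGNL1 (paracingulin), a plaque protein that links junctions to the cytoskeleton, CRB3, an apical polarity protein, ARHGEF18, an activator of RhoA, and YBX3, a factor that binds the plaque protein ZO-1. In the male choroid plexus CGNL1 had 191 TPM, JAM3 147 TPM, CRB3 117 TPM, ARHGEF18 70.1 TPM and YBX3 63.4 TPM. Among the 29 junction genes, members included, CLDN2 placed 2 in the male and female choroid plexus, behind ACTB alone, 3 in the sorted cells and 4 in the proximal tubule, whereas CLDN1 placed 21 and OCLN 23 in the male tissue.

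In the FACS library against the male tissue, 0 of the 5 tight junction genes differed by 2-fold or more. JAM3 had 171 TPM and CRB3 107 TPM in the sorted cells, and their log2 ratios of 0.21 and -0.13 lay above the median of all genes. CGNL1 had 96.2 TPM and a log2 ratio of -0.98, and YBX3 and ARHGEF18 had log2 ratios of -0.78 and -0.75. Over all 26 genes 6 were at least 2-fold lower, with a median log2 ratio of -0.77, and 0 were higher by that much, while 25.5% of all genes were at least 2-fold lower. These 6 were CTNNB1 (63.5 against 178 TPM) and CTNNAL1 of the adherens junction list, and EZR (ezrin, a linker of membrane and actin), SPTBN1, RAC1 and CDC42 of the actin list. CDH3 (P-cadherin) had 80.2 TPM in sorted cells against 74.5 TPM in whole male tissue. Of the 26 genes, 11 had a log2 ratio above the median of all genes, as both claudins had, and OCLN lay below it.

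Between the sexes, 0 of the 26 genes differed by 2-fold or more, against 1.40% of all genes and 0.501% of the genes of the list, with log2 ratios of -0.46 (YBX3) to 0.20 (CRB3) and a median of -0.19. The ratio of CLDN1, at -0.49, was below that of each of these genes. In the proximal tubule 24 of the 26 were at least 2-fold lower than in the male choroid plexus, 9 of them by a listed 0, against 71.0% of all genes and 75.5% of the genes of the list. Their median log2 ratio was -5.15, and MYL6 (a myosin light chain) was at least 2-fold higher with 3464 against 571 TPM, as were 12.1% of all genes. CDC42 had 424 against 395 TPM. The ratio of CLDN2, -3.92, and that of OCLN, -4.13, lay above this median, and that of CLDN1, -6.58 by its listed 0, lay below it. The 9 genes listed at 0 all lay below it too, at ratios that depend on the added 1 TPM. The median therefore does not place CLDN2 and OCLN among the junction genes with counts in the tubule.

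**Figure D4:**
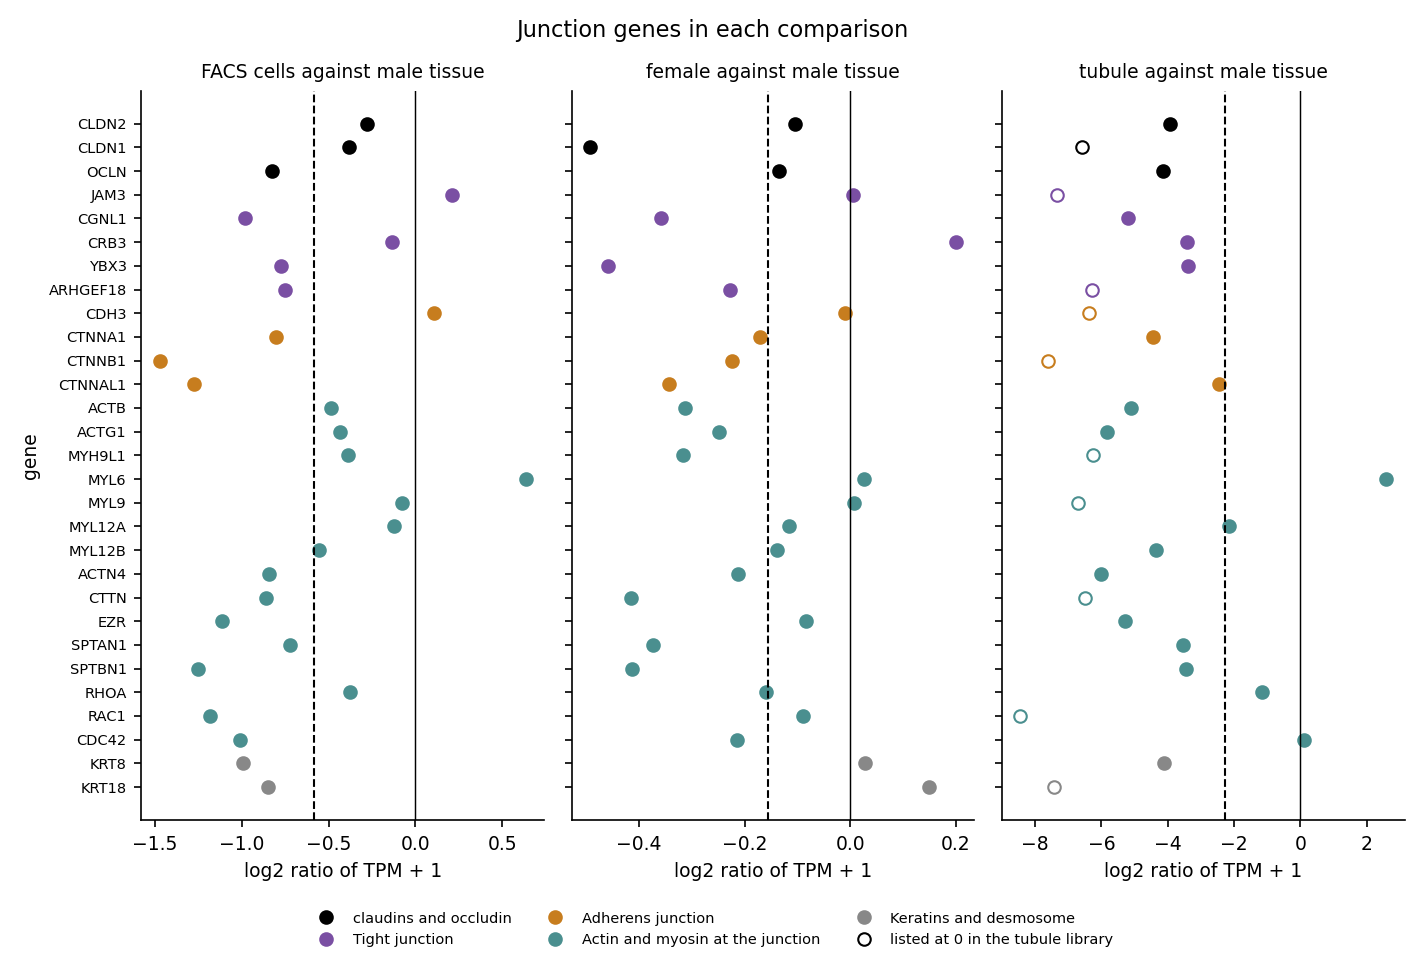
Log2 ratio of TPM + 1 for CLDN2, CLDN1 and OCLN and 26 further junction genes (rows, coloured by list) in 3 comparisons with the male choroid plexus, each with its own x axis. The solid line is no difference, the dashed line the median of all genes, and open circles mark genes listed at 0 in the tubule, whose position depends on the added 1 TPM. CLDN1 lies leftmost in the female comparison, and CLDN2 and CLDN1 lie right of the dashed line in the FACS comparison.

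The genes nearest to each member were found by the Euclidean distance of log2(TPM + 1), with mitochondrially encoded genes kept. Values were centred over the libraries in which the member was at or above 0.5 TPM. Over the 4 libraries, the nearest of 1309 named genes to CLDN2 were TSPAN31, ACTR1A and GPS1, at distances of 0.075, 0.11 and 0.14, against a median of 2.03 over the named genes, and OCLN was 171st in this order at 0.64. The nearest to OCLN were ZFAND3, COPS6 and ELOF1, at 0.056, 0.090 and 0.095, with CLDN2 at place 230. Over the 3 choroid plexus libraries, the nearest of 2325 named genes to CLDN1 were ABCA4, ERAP1 and SLC10A3, at 0.033, 0.060 and 0.076, with CLDN2 at place 250 and OCLN at place 1208. ABCA4, a lipid flippase, had 85.8 TPM in the male, 60.6 in the female and 63.6 in the FACS library, beside 86.9, 61.4 and 66.3 TPM of CLDN1. No claudin or occludin was thus among the nearest genes of another member. In the proximal tubule TSPAN31, ACTR1A and GPS1 had 0.85, 0.52 and 1.17 TPM, against 15.8 TPM of CLDN2. The added 1 TPM weighs on values this low. A small distance therefore does not mean an equal fold between tubule and choroid plexus. So few libraries make such distances a description of these pools only.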

How the data were processed

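RNA of 4 pooled libraries was sequenced as paired-end reads, which the authors aligned to Rnor_6.0 with STAR 2.7.2a and quantified with RSEM 1.3.3. The deposited values are expected counts, which are estimates, TPM and the effective length of each gene in bases, and the FPKM were not used. The strandedness of the libraries is not given in the sources used here. Expected counts summed to 28324976 (male choroid plexus), 25376480 (female), 23873318 (FACS) and 25130213 (proximal tubule). Names came from the study's lists, which pair 2452 of 32883 IDs with one. The members, lists and alternatives were chosen with earlier results of these data known. All members are named, with the 3 nearest named genes of each and named genes of the junction and marker lists. Intervals are exact Poisson for counts, exact conditional binomial for ratios and Wilson for shares. Log2 ratios of TPM plus 1 were taken over genes at or above 0.5 TPM in either library with Python 3.11.15, pandas 2.3.3, numpy 2.4.6 and scipy 1.17.1, drawn with matplotlib 3.10.9 and tested on simulated data. Without replicates no test was run. The alternatives were pseudocounts of 0.1 and 0.5, cut-offs of 0.1 and 1 TPM or none, removal of the 10 highest genes, CPM computed from the expected counts, centring on the median and mitochondrially encoded genes kept or removed, and, chosen after seeing the data, the female tissue in place of the male.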

Additional observations from a re-analysis of the deposited data

How the results depend on the processing

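The number of members past 2-fold was the same under every alternative run, 0 of 3 for the FACS library and for the female tissue and 3 of 3 for the proximal tubule. Directions of small differences did depend on the scale. For FACS against male tissue, the log2 ratio of CLDN2 was 0.13 without the 10 highest genes, 0.045 in CPM and 0.30 centred on the median of all genes. That of CLDN1 was 0.022 without the 10 highest genes, 0.20 centred on the median and 0.11 against the female tissue, while that of OCLN kept its sign, between -0.86 and -0.24. For female against male tissue, the log2 ratio of CLDN2 was 0.027 in CPM and 0.051 centred on the median, and that of OCLN was 0.020 centred on the median, while that of CLDN1 was between -0.53 and -0.34. CLDN1 was above OCLN in 2 of the 4 libraries per length and in 1 by CPM, since its log2 ratio to OCLN in the male tissue was then -0.020. For the tubule, the log2 ratio of CLDN2 was between -5.57 and -1.65 and that of OCLN between -5.23 and -1.86. No paired analysis was possible because each condition has 1 library. The value of OCLN in the tubule rests on 137 counts, and spread between animals is unknown.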
